A study of Mus musculus with 21 samples.

Results

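The genes described here are 32 genes of the DNA repair pathways used in the diversification of antibody genes, out of 23337 gene symbols in the count table. They were chosen by name and role as genes of mismatch repair (4), base excision repair (8), translesion synthesis (4), break joining (7), and break sensing and recombination (9). All 32 passed the filter on low counts and were tested in all 13 comparisons. RNA was sequenced from sorted B cells of 3 sites: spleen, mesenteric lymph nodes (mLN, which drain the gut) and Peyer's patches (PP, the lymphoid tissue within the intestinal wall). The mice were C57BL/6, 8 to 12 weeks old, and the study's subject is self-reactive B cells in gut tissue. Each site has 3 kinds of B cell, named BCL2 HEL pos, HEL pos and HEL neg, so there are 9 groups and 21 libraries. Every tissue has 1 pooled HEL neg library, 3 HEL pos libraries (a pool, 392 and 399) and 3 BCL2 HEL pos libraries (922, 926 and 950). The labels do not expand HEL or BCL2, name no promoter or allele for either, and do not say how many mice a pool holds or whether a numbered library is 1 mouse. The p-values therefore measure library-to-library spread, part of which may be technical.

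As background, activated B cells rewrite their antibody genes through uracil placed in the DNA of the antibody loci. Base excision repair removes the uracil: the glycosylase Ung cuts out the base, an endonuclease of the Apex family cuts the strand, and Polb, Xrcc1, Parp1 and Lig3 fill and seal the gap. Mismatch repair proteins (Msh6, Pms2 and the nuclease Exo1 among them) recognise the same lesion as a mismatch. Translesion polymerases, the class of Polh, Poli, Rev1 and Rev3l, copy past it with errors, which gives somatic hypermutation. Class switching goes through double-strand breaks, which are sensed by the Mre11a, Rad50 and Nbn complex and the kinase Atm, marked on the histone H2afx, bound by Mdc1 and Trp53bp1, and joined by the Ku proteins Xrcc5 and Xrcc6 with Prkdc, Dclre1c, Xrcc4 and Lig4. Most of these genes serve every cell, and B cells of the germinal centre use them at the antibody loci.

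The promoter sequences of 23 of the 32 genes are in the RefSeq table used (build GRCm38.p6), each as a window from 250 bases before to 50 after the gene's start. Stretches of 4 of them are shown because their genes were among those whose RNA was higher in a gut-associated site than in the spleen. Each is 100 bases long, 5′ to 3′ on the plus strand, and the capitals mark the E-box letters CACGTG in the first 3 and the GC box letters GGGCGG in the last.

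Apex1 chr14:50924876-50924975: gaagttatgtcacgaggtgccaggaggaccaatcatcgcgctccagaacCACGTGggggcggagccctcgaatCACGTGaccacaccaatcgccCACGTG
Lig3 chr11:82781009-82781108: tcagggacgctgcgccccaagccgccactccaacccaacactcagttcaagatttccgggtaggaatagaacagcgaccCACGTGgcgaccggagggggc
Xrcc5 chr1:72307171-72307270: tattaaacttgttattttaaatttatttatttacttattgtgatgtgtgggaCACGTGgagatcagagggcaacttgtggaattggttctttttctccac
Ung chr5:114130285-114130384: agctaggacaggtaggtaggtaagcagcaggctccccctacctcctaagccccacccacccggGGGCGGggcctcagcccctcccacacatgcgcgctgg

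The Apex1 stretch runs from base -73 to base 27 around the start and holds the E-box letters 3 times. The Lig3 stretch covers bases -100 to -1, the Xrcc5 stretch bases -250 to -151 and the Ung stretch bases -150 to -51. These positions count from the start in the RefSeq table. The gene coordinates given below come from GENCODE, which places the starts of Apex1 and Ung elsewhere. Over the whole windows and both strands, CACGTG was found in 5 of the 23 genes (21.7%; Apex1, Lig3, Parp1, Rev1 and Xrcc5), beside 7.15% of all 32851 windows. The E2F letters TTTGGCGC, TTTCGCGC, TTTCCCGC or TTTGCCGC were in 5 (Brca2, Mdc1, Msh3, Msh6 and Xrcc6), beside 2.26% of all windows. GGGCGG was in 19 beside 35.7%, CCAAT in 12 beside 37.4%, CCGGAAG in 6 beside 8.86%, TGACGTCA in 1 beside 1.79%, and TTTGAA in 0 beside 17.9%. These letters were chosen after the values were seen, and a match describes the sequence only.

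Library totals ran from 5475131 to 11340876 counts, and 3 counts came to 0.263 to 0.519 CPM (CPM, the level used throughout, is a gene's share of the TMM-scaled library total). Markers of B cells were high in every library, with summed levels from 9637 to 22348 CPM. Bcl2, the mouse gene whose name matches the label, was at 134.7 to 181 CPM in the 9 BCL2 HEL pos libraries and 49.8 to 100.2 CPM in the other 12. In HEL pos cells it was at 49.8 to 67.5 CPM in the libraries 392 and 399 and 88.3 to 99.9 CPM in the pools. The same 2 numbers, 392 and 399, stood apart in Y-linked transcripts, with sums of 0 to 0.865 CPM, beside 96 to 164 CPM in every other library. Markers of other cells also differed. Epithelial transcripts summed to 258, 683 and 1104 CPM in the PP HEL pos libraries 392, pool and 399, to 1186 CPM in PP HEL neg cells, and to 42.2 to 188 CPM in PP BCL2 HEL pos cells, beside at most 70.7 CPM in the spleen and mLN. Granulocyte transcripts summed to 50.3 to 194 CPM in the spleen HEL pos libraries and 71.8 CPM in spleen HEL neg cells, and to at most 1.04 CPM elsewhere. T and NK cell transcripts reached 69.1 CPM in mLN HEL pos cells. Fewer cells of a type and less RNA per cell cannot be told apart in such bulk libraries.

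Per kilobase of transcript, the 32 genes spanned more than 2 orders of magnitude. Parp1, the poly(ADP-ribose) polymerase that marks nicked DNA, was highest at 99.5 CPM per kb as a mean of the 21 libraries (64 to 125). It was followed by the histone H2afx at 43.3, the gap-filling polymerase Polb at 41.4, the scaffold Xrcc1 at 25.1 and the endonuclease Apex1 at 20.8 CPM per kb. The lowest were the recombination genes Brca2 at 0.765 and Brca1 at 0.517 CPM per kb and the nuclease Exo1 at 0.667 CPM per kb, genes with as few as 7 counts in a library. Among translesion polymerases Poli was at 6.01 CPM per kb, near the middle of the 32 genes, and Polh, Rev3l and Rev1 were at 2.80, 2.22 and 2.03. Among the 6 groups with 3 libraries, the ratio of the highest to the lowest group mean was largest for Ung (5.52), Nbn (3.39), Apex1 (3.35) and Brca1 (3.21), and smallest for Poli (1.13), Rad50 (1.23) and Trp53bp1 (1.24).

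**Figure D1:**
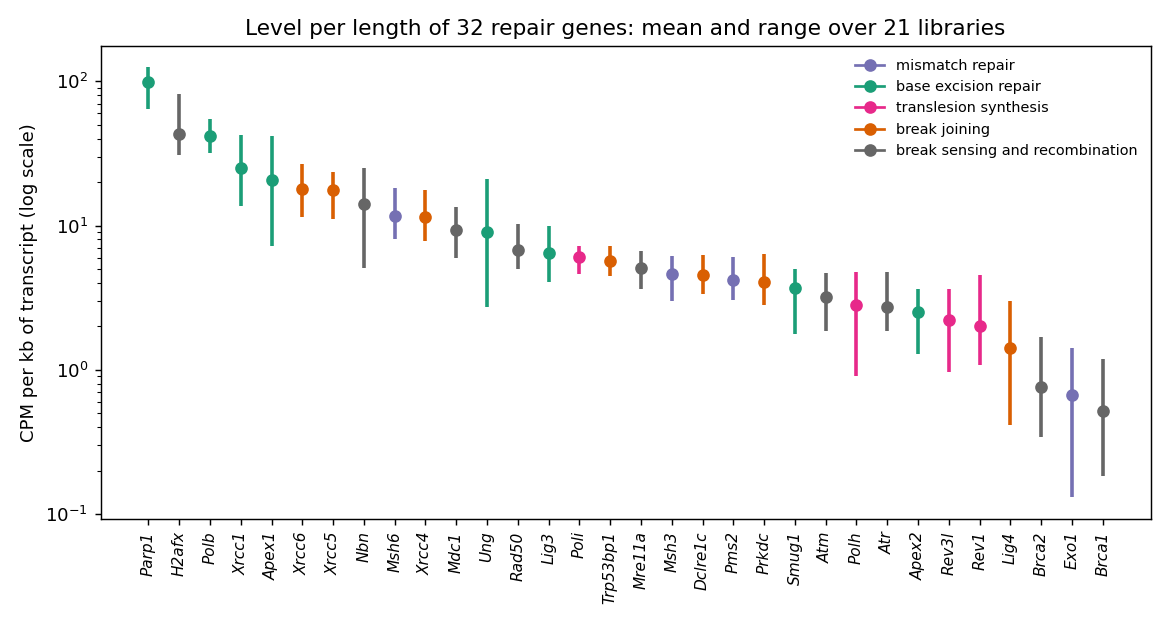
Level of each of the 32 repair genes in CPM per kb of transcript on a log axis, with the mean of 21 libraries as a point and their range as a line, coloured by role. Base excision repair holds 4 of the 5 highest genes, and Brca2, Exo1 and Brca1 are the lowest.

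The mLN held the largest differences from the spleen in HEL pos cells. Of the 32 genes 6 rose and 2 fell in mLN, beside 24.5% of all 11419 genes tested (12.9% higher and 11.5% lower), so the share of repair genes called was close to that of genes in general. Those that rose were Nbn, Ung, Apex1, Xrcc5, Lig3 and H2afx, and those that fell were Msh3 and Prkdc. Their median log2 difference was 0.13 over the 32 genes, beside -0.01 over all genes. In PP against spleen 4 rose (Nbn, Ung, Lig3 and Xrcc5) and 1 fell (Xrcc1), beside 15.4% of all genes (7.94% higher and 7.43% lower), with a median of 0.15 beside 0.02. Each adjusted p given here and below is from edgeR's quasi-likelihood test with Benjamini-Hochberg adjustment over all genes, and a call is an adjusted p under 0.05.

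**Figure D2:**
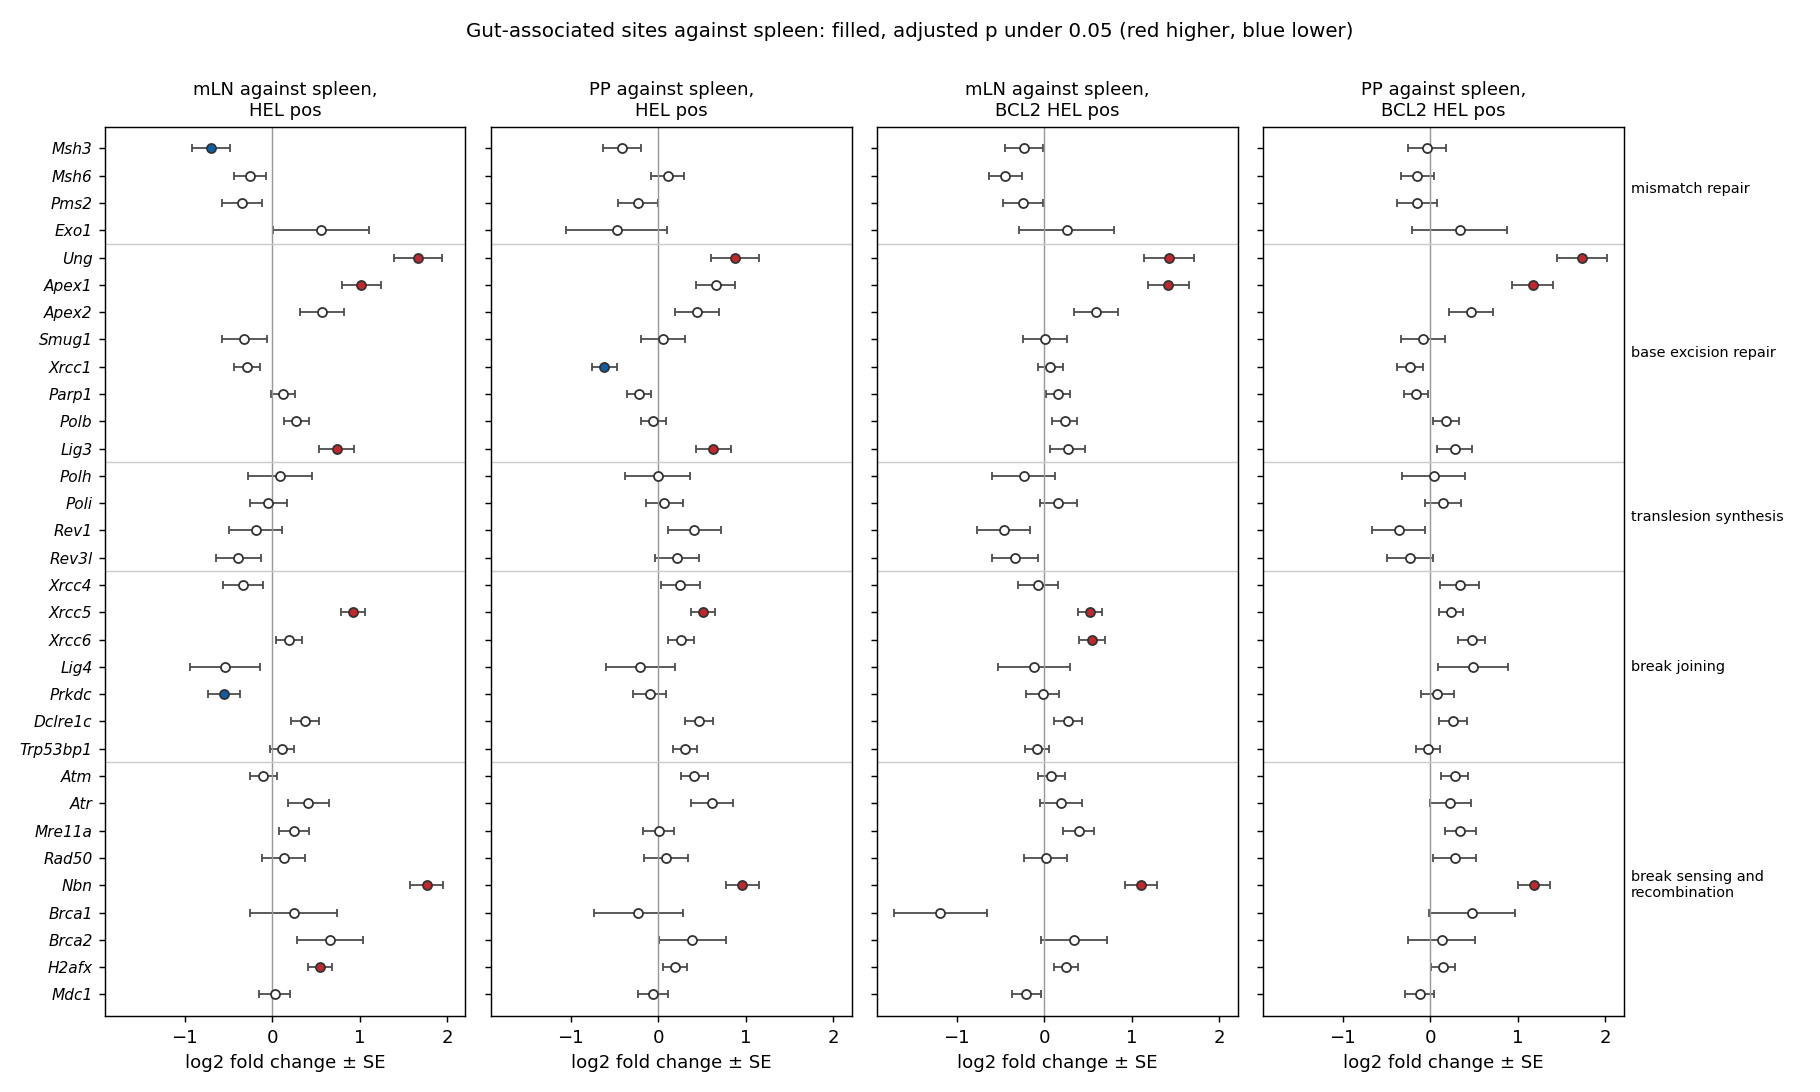
Log2 fold change with its standard error for each repair gene in mLN and PP against spleen, in HEL pos (left pair of panels) and BCL2 HEL pos cells (right pair); filled points passed the test. Nbn and Ung are filled in red in all 4 panels, and Apex1 in 3.

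Nbn encodes the Nbs1 subunit of the complex that senses DNA ends and recruits Atm, and its gene lies at chr4:15957925-15992589 (mm10, as for all genes below). In HEL pos cells of the spleen it was at 21.3, 12.8 and 16.5 CPM in the pool, 392 and 399. In mLN the same libraries gave 50.8, 57.4 and 63.7 CPM, and in PP 34.4, 32.7 and 32 CPM. The 3 tissues did not overlap, with mLN highest and spleen lowest. The 3 HEL neg libraries, 1 per tissue, held Nbn at 30 to 33.5 CPM. These levels lay above every spleen and below every mLN library of HEL pos cells. The log2 difference was 1.76 ± 0.18 (SE) for mLN against spleen (adjusted p = 6.21e-07 by edgeR) and 0.96 ± 0.19 for PP against spleen (adjusted p = 0.00124 by edgeR). Both calls held under every alternative tried. The partners of Nbn in the complex, Mre11a and Rad50, passed in none of the 13 comparisons.

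Ung (chr5:114130386-114139323) encodes the uracil-DNA glycosylase that opens base excision repair. Spleen HEL pos cells held 15.3, 17.1 and 10.2 CPM in the pool, 392 and 399, mLN 35.2, 44.9 and 53.6 CPM, and PP 30.4, 32.4 and 15.4 CPM. All mLN libraries lay above all spleen libraries, while 1 PP library, 399, lay within the range of the spleen. The log2 difference was 1.66 ± 0.28 in mLN (adjusted p = 0.00012 by edgeR), a call kept under every alternative, and 0.88 ± 0.28 in PP (adjusted p = 0.0345 by edgeR). The PP call was lost without the spleen pool (adjusted p = 0.0712), spleen 399 (0.151), the PP pool (0.116) or PP 392 (0.128) in edgeR, with all HEL pos pools left out (0.136), and with only the PP and spleen HEL pos libraries in the fit (0.15).

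Apex1 (chr14:50924968-50927139), the main endonuclease for sites that have lost a base, followed Ung in mLN. Its levels were 14.8, 23.5 and 22.9 CPM in the spleen pool, 392 and 399, 35.7, 51.6 and 34.6 CPM in mLN, and 29.5, 34.6 and 31.6 CPM in PP. No mLN or PP library overlapped the spleen, and mLN and PP overlapped each other. The log2 difference was 1.02 ± 0.22 in mLN (adjusted p = 0.00189 by edgeR), kept under every alternative, and 0.66 ± 0.23 in PP (adjusted p = 0.0548 by edgeR), which missed the threshold. With the library number as a block the PP difference of 0.67 passed (adjusted p = 0.0227 by edgeR). The exons of Apex1 overlap 877 bases of Pip4p1 on the opposite strand, and the kits named in the labels do not settle whether strand was kept, so reads there cannot be told apart. Apex2, the second gene of the family, gave a log2 difference of 0.57 in mLN and passed in no comparison.

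Lig3, the ligase that seals the repaired strand (chr11:82781108-82804274), was at 31.4, 35.6 and 27.8 CPM in the spleen pool, 392 and 399. In mLN it was at 52.5, 48.6 and 55.6 CPM, above every spleen library, and in PP at 50.5, 64.6 and 31.3 CPM, where library 399 overlapped the spleen. The differences were 0.74 ± 0.20 in mLN (adjusted p = 0.00996 by edgeR) and 0.63 ± 0.20 in PP (adjusted p = 0.0394 by edgeR). The mLN call was lost without spleen 399 (adjusted p = 0.0511) and with all HEL pos pools left out (0.057). The PP call was lost without the spleen pool (adjusted p = 0.103), spleen 392 (0.055), spleen 399 (0.141), the PP pool (0.0922) or PP 392 (0.235), with all HEL pos pools left out (0.151) and with only the libraries compared (0.173). Lig3 shares 1826 exonic bases with Rffl on the opposite strand.

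Xrcc1 (chr7:24546289-24573440), the scaffold that holds Lig3 and Polb at the gap, went the other way in PP. It was at 79.3, 64.2 and 69.7 CPM in the spleen pool, 392 and 399 and at 49.9, 54.3 and 34.8 CPM in PP, with no overlap, and at 65.1, 55.6 and 52.7 CPM in mLN. The PP difference was -0.62 ± 0.15 (adjusted p = 0.00653 by edgeR), and the mLN difference of -0.29 ± 0.15 did not pass. Among the PP HEL pos libraries the lowest value was in 399, which had the most epithelial transcripts (1104 CPM), while the PP HEL neg library, with 1186 CPM of them, had the highest Xrcc1 of all libraries (108 CPM). The part of epithelial transcripts in the difference was not tested. The call was lost with only the libraries compared (adjusted p = 0.0824) and with PP 392 as the 1 PP library left (-0.41, adjusted p = 0.217), a fit that assumes its spread to be that of the other groups. The other base excision genes Parp1, Polb and Smug1 passed in no comparison.

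Among the genes that join breaks, the 2 Ku subunits differed. Xrcc5, or Ku80 (chr1:72307421-72394952), was at 34, 28.4 and 30.9 CPM in the spleen pool, 392 and 399, at 59.9, 59.5 and 56.2 CPM in mLN and at 42.9, 46 and 44.3 CPM in PP, so the 3 tissues did not overlap. The log2 difference was 0.92 ± 0.14 in mLN (adjusted p = 3.86e-05 by edgeR), kept under every alternative, and 0.51 ± 0.14 in PP (adjusted p = 0.0142 by edgeR). The PP call was lost without spleen 392 (adjusted p = 0.0774), with PP 392 as the 1 PP library left (0.54, adjusted p = 0.115), with no filter on low counts (0.102) and with only the libraries compared (0.124). Xrcc6, or Ku70 (chr15:81987835-82040085), was at 62.3, 59.1 and 71.5 CPM in the spleen and 76.3, 78.4 and 63.1 CPM in mLN, which overlapped (0.19 ± 0.15, adjusted p = 0.397 by edgeR).

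Prkdc, the catalytic subunit of the DNA-dependent kinase (chr16:15637866-15842235), fell in mLN. Its levels were 59.7, 58.9 and 77.7 CPM in the spleen pool, 392 and 399 and 52.5, 38.3 and 42.3 CPM in mLN, without overlap. The difference was -0.55 ± 0.19 (adjusted p = 0.034 by edgeR) and was lost without spleen 399 (adjusted p = 0.177), mLN 392 (0.133) or mLN 399 (0.1). Msh3 (chr13:92211872-92355003), which binds loops in mismatch repair, was at 22.2, 23.8 and 24.8 CPM in the spleen and 12.2, 14.3 and 16.7 CPM in mLN, again without overlap. Its difference was -0.70 ± 0.22 (adjusted p = 0.0207 by edgeR). It was lost without the mLN pool (adjusted p = 0.0829), mLN 392 (0.0533) or spleen 399 (0.0629), and with all HEL pos pools left out (0.103). The other mismatch repair members, Msh6, Pms2 and Exo1, did not pass in any tissue comparison.

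H2afx (chr9:44334694-44336077), the histone variant phosphorylated around breaks, rose in mLN. It was at 53.4, 48.4 and 42.8 CPM in the spleen pool, 392 and 399 and at 66.9, 66.5 and 75.9 CPM in mLN, without overlap (0.54 ± 0.14, adjusted p = 0.00523 by edgeR, kept under every alternative). S phase markers, the genes of DNA replication, summed to 981 to 1036 CPM in the 3 mLN HEL pos libraries and 676 to 834 CPM in the spleen, and 5 of the 13 rose in mLN. Mitosis markers did not separate the tissues (58.2 to 82.1 CPM against 56.4 to 115 CPM), and 0 of 13 passed. The part of S phase in the mLN differences was not tested. Granulocyte transcripts, 50.3 to 194 CPM in the spleen and at most 0.251 CPM in mLN, moved with the same contrast, and their part in it was not tested either.

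**Figure D3:**
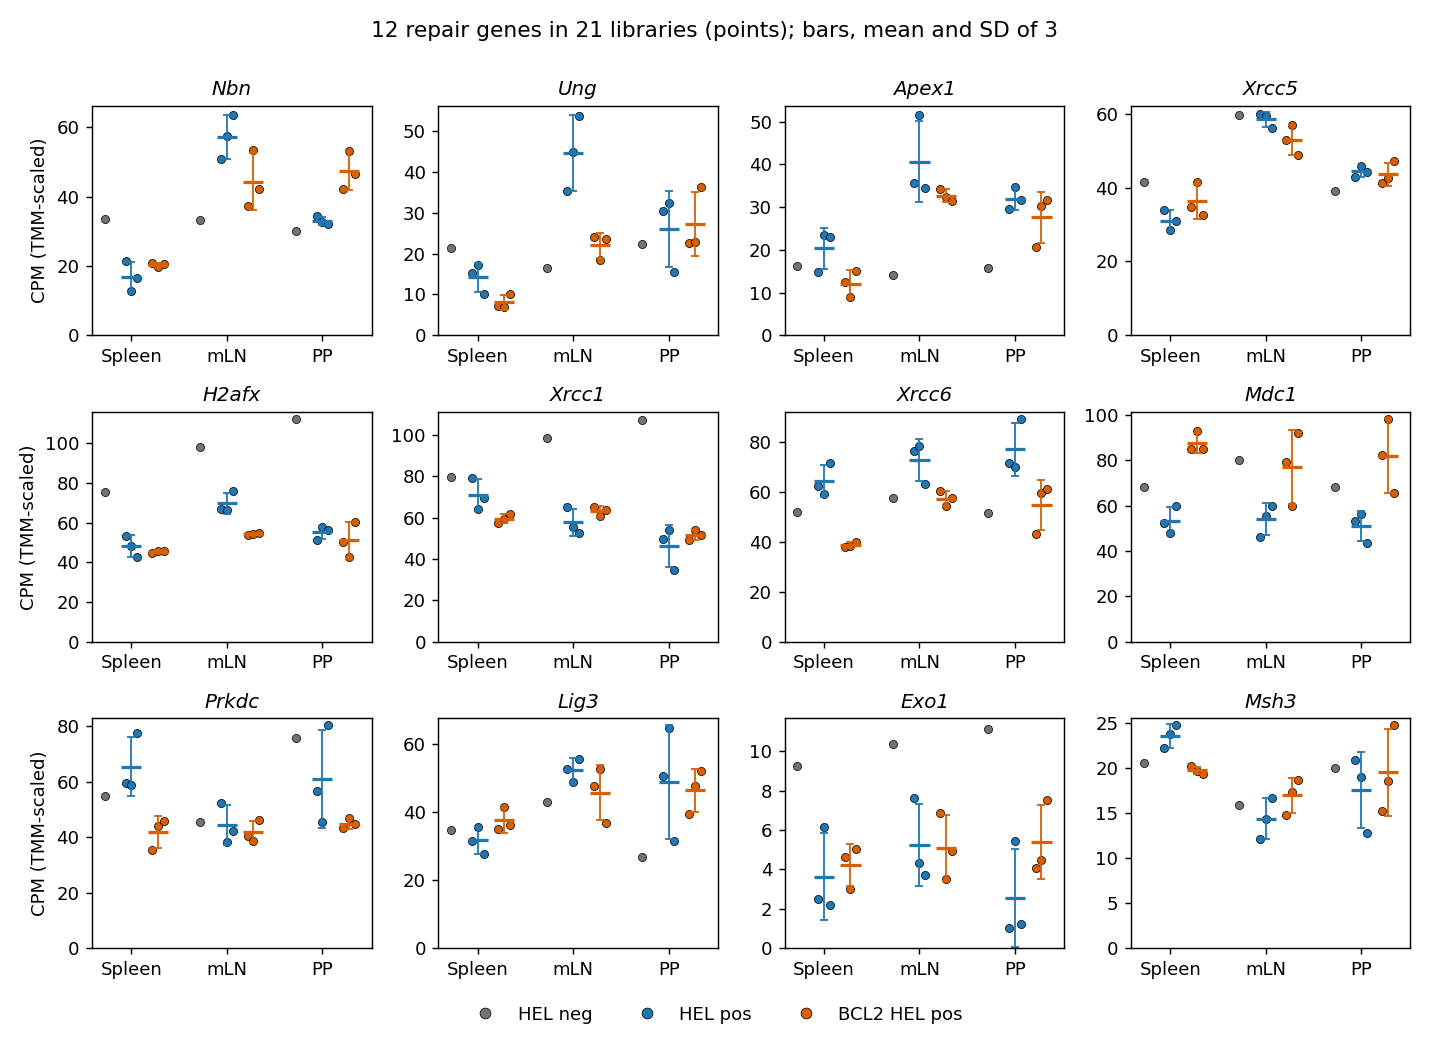
CPM of 12 repair genes in every library, with 1 panel per gene, tissues on the horizontal axis and cell kinds by colour; bars are the mean and SD of 3 libraries. Nbn, Ung and Apex1 are lowest in the spleen for both of the HEL pos kinds, and H2afx and Xrcc1 are highest in the single HEL neg library of each tissue.

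Between the gut-associated sites, 2 of 32 genes differed in HEL pos cells, beside 8.86% of all genes (5.34% higher and 3.52% lower): Nbn was lower in PP than in mLN (-0.80 ± 0.18, adjusted p = 0.00836 by edgeR) and Atm higher (0.52 ± 0.16, adjusted p = 0.0422 by edgeR). Atm, the kinase at the head of the break response, was at 42.8, 33.4 and 46.7 CPM in the PP pool, 392 and 399 and at 25.8, 28.2 and 31.4 CPM in mLN, without overlap. Its call was lost without the mLN pool (adjusted p = 0.126), mLN 392 (0.121), mLN 399 (0.0638), the PP pool (0.0969) or PP 399 (0.121), that of Nbn without mLN 399 (0.0511). With PP 392 as the 1 PP library left (PP 399 and the PP pool out, its spread assumed to be that of the other groups), Nbn gave -0.83 (adjusted p = 0.121) and Atm 0.22 (adjusted p = 0.672). The call of Atm was also lost with all HEL pos pools left out (adjusted p = 0.212), with no filter on low counts (0.164) and with only the libraries compared (0.156). With the library number as a block 4 genes passed, Ung (-0.84, adjusted p = 0.022 by edgeR) and Parp1 (-0.36, adjusted p = 0.0452 by edgeR) besides these. Calls over all 11419 genes also grew with the block, to 843 higher and 791 lower, from 610 and 402. Without the block Ung gave -0.78 (adjusted p = 0.0709 by edgeR).

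In BCL2 HEL pos cells, which come from other libraries, Nbn, Ung and Apex1 rose in both gut-associated sites. In mLN against spleen 5 of 32 genes rose and 0 fell, beside 10.0% of all genes (5.77% higher and 4.23% lower), and in PP against spleen 3 rose and 0 fell, beside 7.34% (4.81% higher and 2.53% lower). The counts were not tested against those shares. Nbn was at 20.9, 19.8 and 20.6 CPM in the spleen libraries 922, 926 and 950, at 37.4, 53.4 and 42.3 CPM in mLN and at 42.4, 53.2 and 46.6 CPM in PP. The mLN and PP libraries lay above all of the spleen and overlapped each other. The log2 differences from the spleen were 1.10 ± 0.18 in mLN (adjusted p = 0.000456 by edgeR) and 1.19 ± 0.18 in PP (adjusted p = 0.000265 by edgeR).

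Ung was lowest of all groups in the BCL2 HEL pos spleen, at 7.07, 6.94 and 10.2 CPM in 922, 926 and 950. It was at 23.9, 18.5 and 23.6 CPM in mLN (1.43 ± 0.29, adjusted p = 0.0026 by edgeR) and 22.7, 22.9 and 36.3 CPM in PP (1.73 ± 0.29, adjusted p = 0.000555 by edgeR). Apex1 was at 12.4, 8.91 and 15 CPM in the spleen, 34.3, 32.3 and 31.5 CPM in mLN (1.42 ± 0.23, adjusted p = 0.000434 by edgeR) and 20.7, 30.3 and 31.7 CPM in PP (1.17 ± 0.23, adjusted p = 0.00302 by edgeR). For both genes no mLN or PP library overlapped the spleen. The 6 calls of Nbn, Ung and Apex1 held under every alternative tried.

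Both Ku genes rose in mLN of BCL2 HEL pos cells. Xrcc5 was at 34.8, 41.7 and 32.6 CPM in the spleen and 52.8, 57 and 48.7 CPM in mLN (0.52 ± 0.14, adjusted p = 0.0167 by edgeR). That call was lost without spleen 922 (adjusted p = 0.0703), spleen 950 (0.0928) or mLN 926 (0.104), and with no filter on low counts (0.0843). Xrcc6 was at 37.8, 38.4 and 40 CPM in the spleen and 60.2, 54.3 and 57.3 CPM in mLN (0.55 ± 0.15, adjusted p = 0.0239 by edgeR). Leaving out any 1 of the spleen and mLN libraries 922, 926 and 950 ended the call of Xrcc6, with adjusted p from 0.0578 to 0.0838. In PP against spleen the differences were 0.24 for Xrcc5 (adjusted p = 0.367 by edgeR) and 0.47 for Xrcc6 (adjusted p = 0.0628 by edgeR).

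In these cells 0 of 32 genes passed between PP and mLN (3 had an unadjusted p under 0.05), beside 1.16% of all genes (0.806% higher and 0.350% lower), and the same 0 was found by DESeq2. The same tissue contrasts did not differ between HEL pos and BCL2 HEL pos cells for any repair gene. Tests of that difference called 0 of 32 genes for PP and for mLN, by edgeR and by DESeq2, with 1 gene each at an unadjusted p under 0.05. Over all genes they called 0.00876% (0.00876% higher, 0% lower) and 0.385% (0.219% higher, 0.166% lower). The 1 gene was Ung for PP (a difference of differences of 0.86 ± 0.39, adjusted p = 0.501 by edgeR) and Nbn for mLN (-0.66 ± 0.26, adjusted p = 0.384 by edgeR). These values do not show that the contrasts are alike.

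Comparing BCL2 HEL pos with HEL pos cells in the spleen, 1 of 32 genes was higher and 2 were lower, beside 9.37% of all genes (4.55% higher and 4.82% lower). In mLN 1 was lower, beside 11.7% (5.78% higher and 5.90% lower), and in PP 1 was higher and 2 were lower, beside 10.1% (5.33% higher and 4.74% lower). Mdc1, Xrcc6, Prkdc, Rev3l and Ung were the 5 genes. The 3 tissues of a numbered library share their source, so these are not 3 independent comparisons. The libraries 392 and 399 also differ from all BCL2 HEL pos libraries in Y-linked transcripts, which leaves 1 HEL pos library a tissue, the pool, without that difference. Granulocyte transcripts reached 194 CPM in spleen HEL pos cells and at most 0.577 CPM in BCL2 HEL pos cells. Epithelial transcripts reached 1104 CPM in the PP HEL pos library 399 and at most 188 CPM in BCL2 HEL pos cells. Among the PP HEL pos libraries, 399 also had the lowest Mdc1 and the highest Xrcc6 and Rev3l. The part of these differences in the calls was not tested.

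Mdc1 (chr17:35841515-35859670), the adaptor that binds phosphorylated H2afx, was higher in BCL2 HEL pos cells. In the spleen it was at 85.1, 92.8 and 85 CPM in 922, 926 and 950, beside 52.4, 47.8 and 59.8 CPM in the HEL pos pool, 392 and 399, without overlap (0.73 ± 0.17, adjusted p = 0.00974 by edgeR). In PP it was at 82.4, 98.3 and 65.4 CPM beside 53.3, 56.1 and 43.6 CPM, again without overlap (0.67 ± 0.17, adjusted p = 0.0168 by edgeR). In mLN 79.4, 59.6 and 92.1 CPM stood beside 46.1, 55.6 and 59.9 CPM, with an overlap (0.50 ± 0.17, adjusted p = 0.0639 by edgeR). The spleen call was lost without the HEL pos library 392 (adjusted p = 0.063). The PP call was lost without the HEL pos library 399 (adjusted p = 0.0796) or the BCL2 HEL pos library 926 (0.0845), and with PP 392 as the 1 PP HEL pos library left (0.55, adjusted p = 0.257).

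Xrcc6 was lower in BCL2 HEL pos cells of the spleen, at 37.8 to 40 CPM beside 59.1 to 71.5 CPM (-0.72 ± 0.15, adjusted p = 0.00436 by edgeR, kept under every alternative). In PP it was at 43.1, 59.6 and 61.2 CPM beside 71.4, 70 and 89.2 CPM, without overlap (-0.51 ± 0.15, adjusted p = 0.0357 by edgeR). The PP call was lost without the HEL pos library 399 (adjusted p = 0.156) or the BCL2 HEL pos library 922 (0.165), with PP 392 as the 1 PP HEL pos library left (-0.35, adjusted p = 0.399), and with no filter on low counts (0.0806). Prkdc, which works with the Ku pair, was at 35.3, 44.1 and 46 CPM in the BCL2 HEL pos spleen beside 58.9 to 77.7 CPM in the HEL pos spleen (-0.63 ± 0.19, adjusted p = 0.0365 by edgeR). It lost its call without the HEL pos library 399 (adjusted p = 0.181) or the BCL2 HEL pos libraries 922 (0.152), 926 (0.0826) or 950 (0.052).

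Ung was lower in BCL2 HEL pos cells of mLN, at 18.5 to 23.9 CPM beside 35.2 to 53.6 CPM, without overlap (-1.03 ± 0.27, adjusted p = 0.0146 by edgeR). The call was lost without the HEL pos libraries 392 (adjusted p = 0.0538) or 399 (0.093) or the BCL2 HEL pos library 926 (0.0758). S phase markers moved the same way in mLN, at 722 to 847 CPM beside 981 to 1036 CPM, with 5 of 13 lower; their part was not tested. In the spleen Ung gave -0.80 (adjusted p = 0.0876 by edgeR) and Apex1 -0.74 (adjusted p = 0.0522 by edgeR), and both passed by DESeq2 (adjusted p = 0.0486 and 0.0233). In PP the difference of Ung was 0.06 ± 0.27. H2afx in mLN gave -0.37 (adjusted p = 0.0788 by edgeR) and passed by DESeq2 (adjusted p = 0.048).

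Rev3l, the catalytic subunit of polymerase zeta, was at 10.4, 25.2 and 16.8 CPM in the PP BCL2 HEL pos libraries 922, 926 and 950 and at 33, 29.3 and 38.6 CPM in the PP HEL pos pool, 392 and 399, without overlap. Its difference was -0.96 ± 0.26 (adjusted p = 0.022 by edgeR), and it was the 1 translesion gene that passed in any comparison. The call was lost without the HEL pos library 399 (adjusted p = 0.0785) or the BCL2 HEL pos libraries 922 (0.106) or 950 (0.075). It was also lost with PP 392 as the 1 PP HEL pos library left (-0.74, adjusted p = 0.291) and with only the libraries compared (0.116). All 3 PP calls were lost in these last 2 fits.

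**Figure D4:**
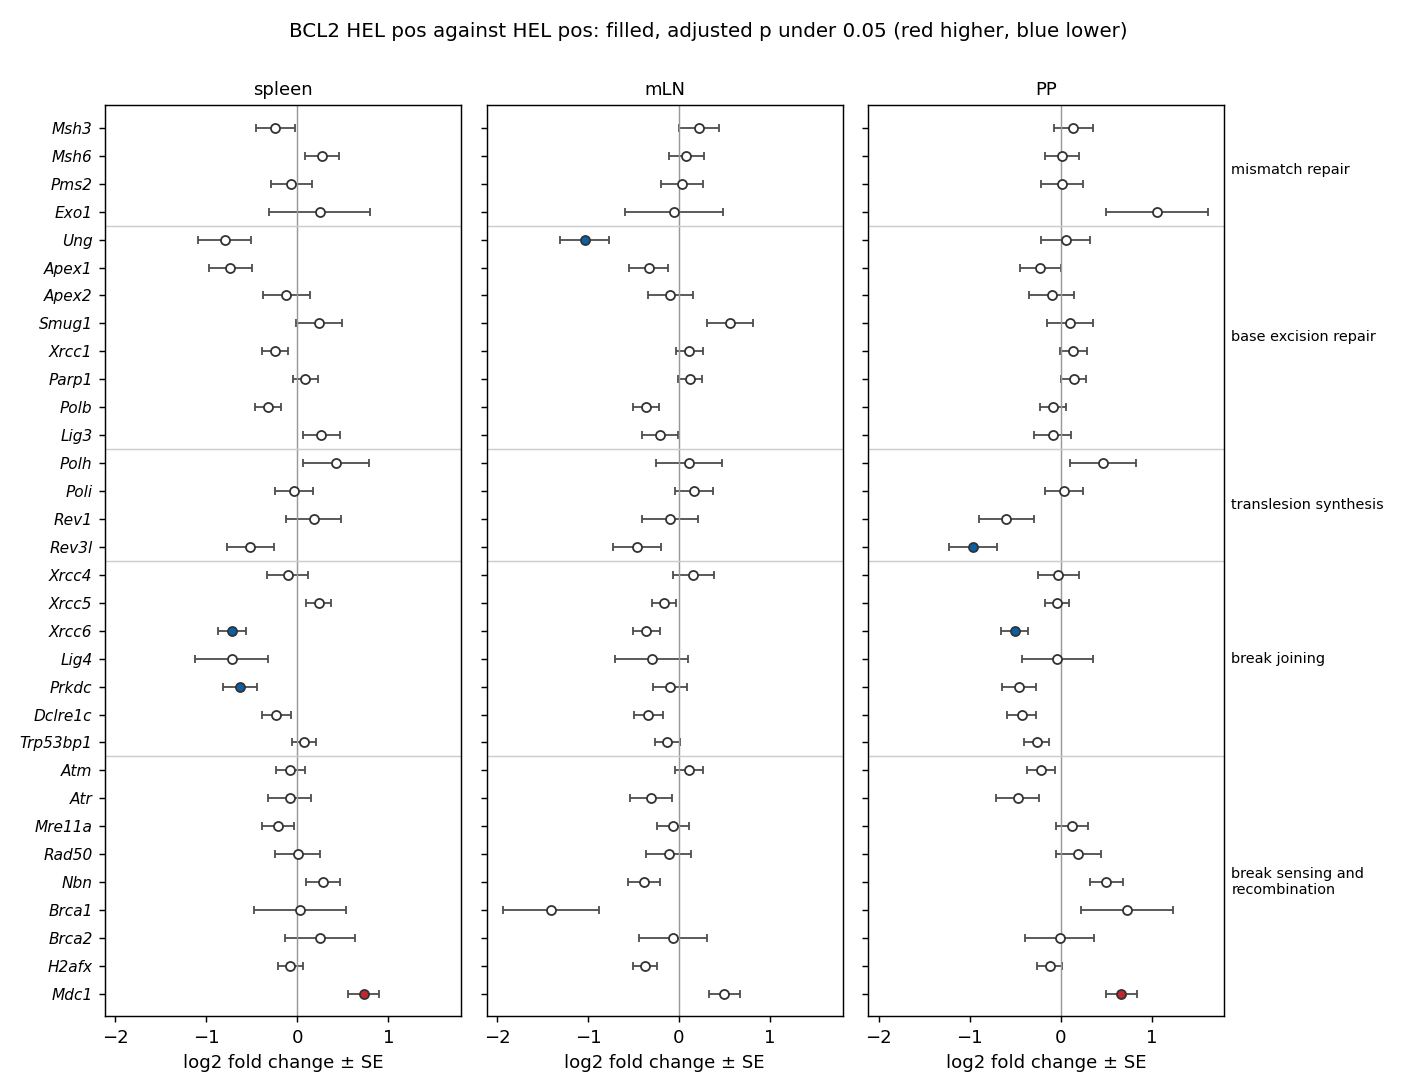
Log2 fold change with its standard error of each repair gene between BCL2 HEL pos and HEL pos cells, 1 panel per tissue; filled points passed the test, red higher and blue lower. Mdc1 lies to the right of 0 in all 3 panels and is filled in the spleen and PP, and Xrcc6 lies to the left.

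HEL neg cells have 1 pooled library per tissue, so they were compared over the 3 tissues, with tissue as a covariate. Against them 4 of 32 genes differed in HEL pos cells (Apex1 higher, H2afx, Xrcc1 and Mdc1 lower, beside 8.68% of all genes, 3.46% higher and 5.22% lower) and 5 in BCL2 HEL pos cells (H2afx, Xrcc1, Prkdc, Exo1 and Brca1 lower, beside 14.7%, 6.56% higher and 8.10% lower). Libraries of a number recur in each tissue, so these p-values treat related libraries as independent. Y-linked transcripts summed to 106 to 151 CPM in the 3 HEL neg libraries, while the numbered HEL pos libraries had almost none. Only the pooled HEL pos library of each tissue is without that difference from HEL neg cells. The part of this difference in the HEL pos calls was not tested. With the library number as a block, which leaves the pool as the HEL pos side of the contrast, 0 of the 32 genes passed for HEL pos cells, and 0 passed without the PP libraries. Both comparisons share the 3 HEL neg libraries.

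In each tissue H2afx was highest in the HEL neg library, at 75.4, 98.4 and 112 CPM in the spleen, mLN and PP. HEL pos cells held 42.8 to 75.9 CPM, the highest of them in mLN 399, just above the HEL neg library of the spleen, and BCL2 HEL pos cells 42.7 to 60.6 CPM. The log2 difference was -0.73 ± 0.12 for HEL pos (adjusted p = 0.0029 by edgeR) and -0.92 ± 0.11 for BCL2 HEL pos cells (adjusted p = 4.51e-05 by edgeR). Xrcc1 was at 79.6, 98.9 and 108 CPM in the HEL neg spleen, mLN and PP, beside 34.8 to 79.3 CPM in HEL pos cells (-0.74 ± 0.17, adjusted p = 0.0171 by edgeR). It was at 49.4 to 65.1 CPM in BCL2 HEL pos cells (-0.73 ± 0.11, adjusted p = 0.000419 by edgeR). Against BCL2 HEL pos cells both calls held under every alternative. Against HEL pos cells H2afx lost its call without PP HEL neg (adjusted p = 0.0659), and Xrcc1 without PP HEL neg (0.237) or mLN HEL neg (0.118).

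Exo1, the nuclease that widens mismatch repair gaps (chr1:175880581-175913489), was at 9.29, 10.4 and 11.1 CPM in HEL neg cells, above all 18 other libraries (1.02 to 7.65 CPM). The difference passed against BCL2 HEL pos cells (-1.08 ± 0.27, adjusted p = 0.0131 by edgeR) and not against HEL pos cells (-1.51 ± 0.46, adjusted p = 0.0566 by edgeR; 0.0217 by DESeq2). The first was lost without mLN HEL neg (adjusted p = 0.0547) or PP HEL neg (0.057). Brca1, which starts recombination repair, was at 4.64, 7.81 and 5.56 CPM in HEL neg cells and at 1.22 to 5.32 CPM in BCL2 HEL pos cells, with an overlap (-1.25 ± 0.41, adjusted p = 0.0496 by edgeR). Its call was lost without mLN HEL neg (adjusted p = 0.517, difference -0.50). It was lost too without spleen 922 or 950, mLN 922, 926 or 950, or PP 922 or 926 of the BCL2 HEL pos libraries (adjusted p from 0.05 to 0.0953), and without all PP libraries (0.0501).

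Prkdc was at 55, 45.6 and 75.7 CPM in HEL neg spleen, mLN and PP and at 35.3 to 46.9 CPM in BCL2 HEL pos cells, with an overlap in mLN (-0.45 ± 0.13, adjusted p = 0.0287 by edgeR). That call was lost without spleen HEL neg (adjusted p = 0.0539), PP HEL neg (0.284) or the PP BCL2 HEL pos library 922 (0.051), and without all PP libraries (0.252). Apex1 was at 16.1, 14.2 and 15.8 CPM in HEL neg cells, and 8 of the 9 HEL pos libraries lay above all of these (14.8 to 51.6 CPM). The difference of 0.93 ± 0.24 (adjusted p = 0.0268 by edgeR) was lost without mLN HEL neg (adjusted p = 0.249) or PP HEL neg (0.153). Mdc1 was at 68, 80 and 68.1 CPM in HEL neg cells and 43.6 to 59.9 CPM in HEL pos cells (-0.44 ± 0.13, adjusted p = 0.0469 by edgeR). That call of Mdc1 was lost without any 1 of the 3 HEL neg libraries, the mLN pool, the spleen, mLN or PP library 392, or the mLN or PP library 399 (adjusted p from 0.0506 to 0.275), and with no filter on low counts (0.0887).

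Markers of dividing and germinal centre cells moved with the HEL neg comparison. Mitosis markers summed to 280 to 380 CPM in the 3 HEL neg libraries and 29.2 to 115 CPM in all others, and 12 of 13 were lower in HEL pos and 13 of 13 in BCL2 HEL pos cells. S phase markers summed to 1235 to 1598 CPM beside 606 to 1036 CPM, and 10 of 13 were lower in HEL pos and 12 of 13 in BCL2 HEL pos cells. Germinal centre markers summed to 440 to 1090 CPM beside 67.9 to 172 CPM, and all 9 tested were lower in both. The part of these cell states in the repair gene differences was not tested.

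**Figure D5:**
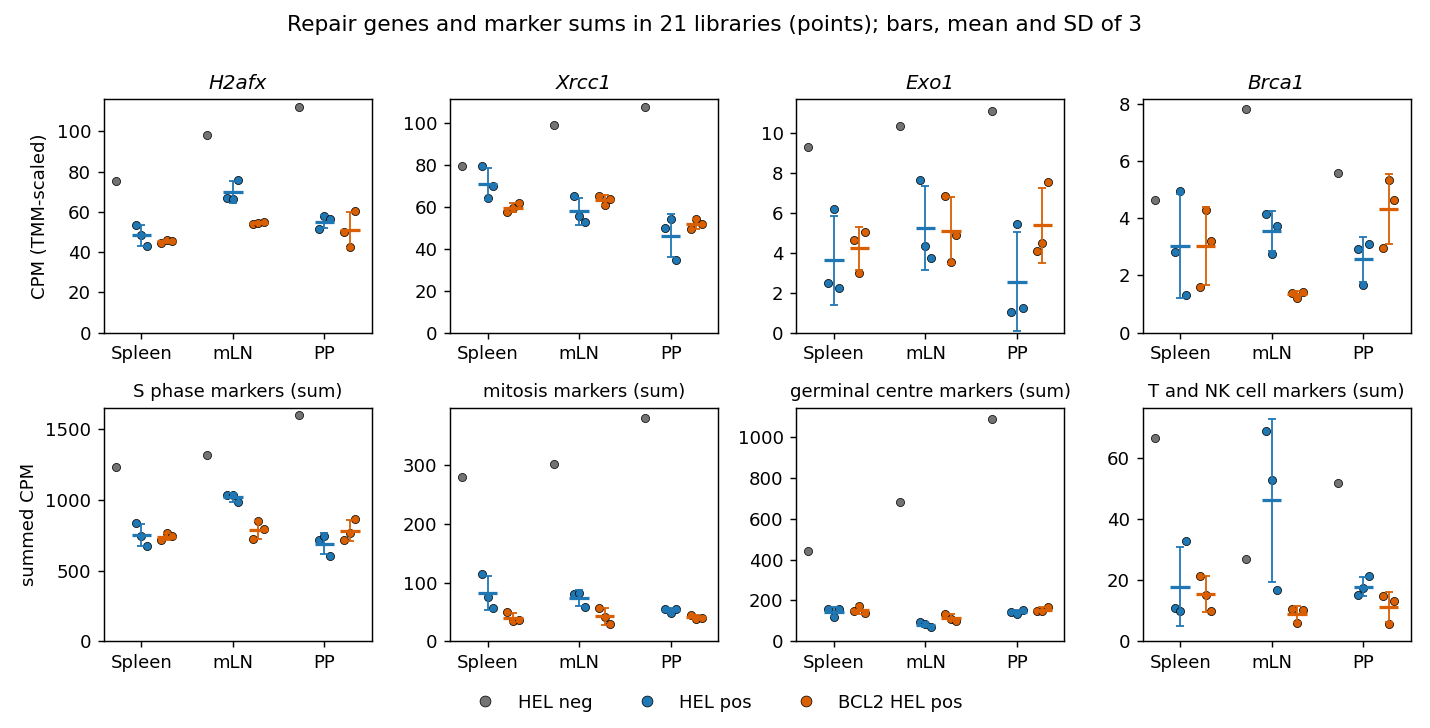
CPM of H2afx, Xrcc1, Exo1 and Brca1 (top) and summed CPM of 4 marker lists (bottom) in every library by tissue and cell kind, with the mean and SD where a group has 3 libraries. The HEL neg library of each tissue lies highest for S phase, mitosis and germinal centre markers and for H2afx and Exo1.

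Xrcc6 was at 51.4 to 57.6 CPM in HEL neg cells, below all HEL pos libraries (59.1 to 89.2 CPM). Its difference of 0.41 missed the threshold by edgeR (adjusted p = 0.0649) and passed by DESeq2 (adjusted p = 0.0488). For Ung neither comparison with HEL neg cells passed. Its HEL neg levels were 21.3, 16.4 and 22.4 CPM in the spleen, mLN and PP. They lay inside the ranges over all tissues of HEL pos (10.2 to 53.6 CPM) and BCL2 HEL pos cells (6.94 to 36.3 CPM). Within the spleen the HEL neg level lay above every HEL pos and BCL2 HEL pos library, and within mLN below every one. The log2 differences averaged over tissues were 0.26 ± 0.32 (adjusted p = 0.676 by edgeR) and -0.31 ± 0.28 (adjusted p = 0.526 by edgeR). Without spleen HEL neg, 2 other genes were called higher in BCL2 HEL pos cells. These were Apex1 (0.98, adjusted p = 0.0093 by edgeR, from 0.47) and Nbn (0.52, adjusted p = 0.0484 by edgeR, from 0.07).

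The 17 repair genes called nowhere were Msh6, Pms2, Apex2, Smug1, Parp1, Polb, Polh, Poli, Rev1, Xrcc4, Lig4, Dclre1c, Trp53bp1, Atr, Mre11a, Rad50 and Brca2. Closest to the threshold was Dclre1c, the Artemis nuclease, in PP against spleen of HEL pos cells (0.46 ± 0.16, adjusted p = 0.0552 by edgeR). It passed there with the library number as a block (adjusted p = 0.0395) and by DESeq2 (0.0407). Next was Rev1 in BCL2 HEL pos against HEL neg cells (-0.74 ± 0.25, adjusted p = 0.0577 by edgeR; 0.0321 by DESeq2). Rev1 shares 1643 exonic bases with Eif5b and Trp53bp1 2130 with Tubgcp4, both on the opposite strand, with the same limit as for Apex1. Poli stayed between 14.7 and 22.8 CPM over all 21 libraries, Trp53bp1 between 43.3 and 69.6 CPM, and Parp1 between 248 and 482 CPM. Low genes such as Polh (2.94 to 15.3 CPM), Lig4 (2.16 to 15.7 CPM) and Brca2 (3.7 to 18.2 CPM) carry wide errors, so a change in them may not be detectable at this depth. Polh was at 10.68 to 15.3 CPM in the 3 HEL neg libraries, above all 9 HEL pos libraries (2.94 to 10.65 CPM), without a call.

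Of 68 other genes of the same repair pathways, 64 or 65 were tested. In mLN against spleen of HEL pos cells 4 rose and 5 fell, with a median log2 difference of -0.07, beside 12.9% higher and 11.5% lower of all genes. Those that rose were Mad2l2, the partner of Rev3l (0.96 ± 0.16, adjusted p = 0.000103 by edgeR), the sliding clamp Pcna (1.02), Ube2a, the enzyme that helps to ubiquitinate it (0.65), and the flap nuclease Fen1 (0.44). Pcna was at 103 to 172 CPM in the HEL pos spleen and 179 to 324 CPM in mLN. Pcna also rose in mLN of BCL2 HEL pos cells (0.68 ± 0.22, adjusted p = 0.0492 by edgeR), and Fen1 rose in PP there (0.53 ± 0.13, adjusted p = 0.0116 by edgeR). Fanca, of the Fanconi anaemia pathway, fell in both sites of HEL pos cells (-1.71 ± 0.24 in mLN, adjusted p = 2.18e-05, and -1.07 ± 0.24 in PP, adjusted p = 0.00372, both by edgeR).

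Against HEL neg cells 2 of 65 other repair genes were higher and 8 lower in HEL pos cells, beside 3.46% and 5.22% of all genes. In BCL2 HEL pos cells 0 of 64 were higher and 15 lower, beside 6.56% and 8.10%. The counts were not tested against these shares. The glycosylase Neil1 fell in both (-2.39 ± 0.22, adjusted p = 3.12e-05, and -1.87 ± 0.26, adjusted p = 0.000142, both by edgeR), at 42.3, 73.5 and 130 CPM in HEL neg spleen, mLN and PP beside 9.21 to 29.5 CPM elsewhere. Of the 4 other mismatch repair genes 0 were called by edgeR in any comparison, beside 0.00876% to 24.5% of all genes.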

How the data were processed

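Counts per gene were whole numbers as deposited, from B cells sorted into Trizol; per the labels' protocols, reads were single-end and 50 bases long, and the kits named are TruSeq and Nextera XT. The submitters' processing notes list mm10, STAR, HTSeq and DESeq2, with no role or version. Of 23337 symbols, 20929 were found in GENCODE M21, which gave coordinates and transcript lengths.

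Counts were filtered with filterByExpr, scaled with TMM and tested with edgeR 4.0.16 in R 4.3.3, two-sided. The 11 comparisons without HEL neg cells came from 1 fit of 18 libraries (11419 genes, 12 residual degrees of freedom). Those with HEL neg cells came from fits of 12 libraries with tissue as covariate (11406 and 10987 genes, 8 degrees each). SE is the log2 fold change divided by the root of F. The script was tested on simulated data. Replicates differed beyond sampling noise (chi-square per degree of freedom 8.56 to 55.3), so none was counted as a duplicate.

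The genes, the other lists and the alternatives were chosen with earlier results of these data known. Genes called in any comparison are described, 12 with every library, and at most 4 of each other list; Pcna is always named. Some genes that this rule would name are not reported here. The alternatives were no filter on low counts, DESeq2 1.42.0, edgeR with the size factors of DESeq2, fits of only the libraries compared, leaving out each library, no pooled HEL pos libraries, no PP libraries 399 and pool (which leaves 1 PP HEL pos library), no PP, and the library number as a block. Deviations from the group means of same-numbered libraries correlated at 0.112 to 0.430 (HEL pos, PP with either tissue) and 0.134 to 0.390 (BCL2 HEL pos). Those of different numbers reached 0.120 and 0.102. For mLN with spleen in HEL pos cells the lowest same-number value was 0.083, and different numbers reached 0.189. The numbers thus paired the tissues in BCL2 HEL pos cells, and less clearly in HEL pos cells.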

Additional observations from a re-analysis of the deposited data

How the results depend on the processing

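Over 511 alternatives to 39 calls of single genes, 402 kept the call and 0 changed the sign; 15 calls were kept under all. The counts of called repair genes moved by over 1.5 times as follows. PP against spleen, HEL pos (5): 1 with only the libraries compared, 3 with PP 399 and the PP pool left out and 3 with all HEL pos pools left out. PP against mLN, HEL pos (2): 4 with the replicate block, 1 with only the libraries compared, 1 without the pools and 0 without PP 399 and pool. BCL2 HEL pos against HEL pos: in the spleen (3) 5 by DESeq2, 5 with no filter and 5 without the pools; in mLN (1) 2 by DESeq2 and 4 with only the libraries compared; in PP (3) 0 with only the libraries compared and 0 without PP 399 and pool. HEL pos against HEL neg (4) gave 0 without the PP libraries and 0 with the block, and BCL2 HEL pos against HEL neg (5) gave 3 without PP. Calls over all genes (higher and lower) moved too. HEL pos against HEL neg gave 59 and 180 without PP and 42 and 81 with the block, from 395 and 595. With only the libraries compared, HEL pos cells gave 398 and 402 for PP against spleen, from 907 and 849. They gave 239 and 105 for PP against mLN, from 610 and 402. BCL2 HEL pos against HEL pos then gave 143 and 143 in PP, from 609 and 541, and 986 and 1119 in mLN, from 660 and 674. Leaving out 1 library at a time gave 3 to 6 called repair genes for PP and 5 to 8 for mLN against spleen in HEL pos cells. Over all genes it called 639 to 1049 higher and 631 to 1086 lower for PP. For mLN it called 1041 to 1309 higher and 975 to 1219 lower. For PP against mLN it gave 0 to 6 repair genes in these cells, beside 246 to 931 higher and 128 to 581 lower of all genes. In BCL2 HEL pos cells the counts of called repair genes for the same contrasts were 3 to 4, 3 to 4 and 0. It gave 2 to 5 in the spleen, 0 to 1 in mLN and 0 to 5 in PP for BCL2 HEL pos against HEL pos, 0 for both interactions, and 0 to 4 and 3 to 7 against HEL neg. With the replicate block the calls of mLN against spleen in HEL pos cells were 8, beside 1833 higher and 1615 lower of all genes. The tests of BCL2 against tissue gave 0 with it. In PP against spleen of HEL pos cells the block gave 7, beside 1185 higher and 1200 lower of all genes. The block changed no call in the BCL2 HEL pos tissues. No paired analysis was possible for BCL2 HEL pos against HEL pos or HEL neg cells because these groups share no library number. No scaling moved the median of all genes by over 0.1. Genes under about 10 CPM, such as Exo1 and Brca1, rest on few counts.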
